A study of Mus musculus with 6 samples.

Results

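The genes on mouse chromosome 8 that flank Msr1, the macrophage scavenger receptor gene, were followed position by position in macrophages with and without MSR1. The genes were chosen by position and by raw count: they start between 30 and 60 Mb of chromosome 8 and had at least 10 counts in 3 or more of the 6 libraries. Of 52550 genes in the deposited table, 407 were listed in this window and 97 met both conditions. Msr1 itself, Hpgd and Fgf20 were left out, which leaves 94. The window was set with changes near Msr1 already known, so the counts below describe this stretch of chromosome and are no independent evidence that it stands apart.

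All 6 libraries came from macrophages grown from bone marrow of C57BL/6 mice for 7 days in medium with 25 ng/ml M-CSF, the growth factor that drives marrow cells to become macrophages. They were then kept for 48 h in a transwell with bone marrow stem cells (BMSCs), a chamber in which a porous membrane separates both cell types. The MSR1 KO group (n = 3) came from mice without functional Msr1 and the MSR1 WT group (n = 3) from wild-type mice of the same labelled strain. The labels give no age, litter or animal number for a library. How many backcrosses the MSR1 KO line had and how its allele was made are not given in the sources used here. The libraries held 36143518 to 47417448 counts, and the 94 genes together took 0.275% to 0.283% of the counts in the MSR1 KO libraries and 0.318% to 0.340% in the MSR1 WT libraries.

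Msr1 encodes a cell-surface receptor with which macrophages take up modified lipoproteins and bacterial products. Genes that lie next to a targeted gene are inherited together with it. In knockout lines made in embryonic stem cells of another strain, neighbours can keep the alleles of that strain through many generations of backcrossing. The deposited table holds counts and no sequence variants, so the alleles carried by the MSR1 KO mice were not examined. An effect of the loss of Msr1 and an effect of DNA linked to the targeted allele cannot be told apart in these 2 groups.

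The targeted gene checked the labels. For Msr1 (ENSMUSG00000025044.16, 39581685 to 39642673), 2118, 1825 and 2000 reads were counted in MSR1 KO and 7543, 9163 and 9219 in MSR1 WT. The groups lay far apart, and Msr1 fell by 2.02 on the log2 scale (SE 0.14, adjusted p = 0.0012, edgeR's quasi-likelihood test). The exons behind the remaining reads are not resolved by a count per gene. Of the other genes left out, Hpgd, which encodes an enzyme that inactivates prostaglandins, was at 33.2 CPM (counts scaled to the library size) in MSR1 WT and 0.55 CPM in MSR1 KO. Fgf20, a fibroblast growth factor, was at 0.527 CPM in MSR1 WT and 0.174 CPM in MSR1 KO.

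Across the 94 genes, changes went in both directions. The study counted a gene as differentially expressed (DEG) when its level differed more than 1.5-fold at a p below 0.05 without adjustment. By this definition 18 of the 94 genes were DEGs (19.1%), against 8.64% of all 16402 tested genes. Of these, 5 were higher in MSR1 KO (5.32% of the 94, against 3.59% of all tested genes) and 13 were lower (13.8%, against 5.05%). An adjusted p under 0.05 was reached by 15 genes (16.0%, against 4.91%), of which 5 rose and 10 fell. The groups did not overlap for 36 genes (38.3%, against 25.5%). In the rest of chromosome 8, 55 of 792 tested genes were DEGs (6.94%) and 34 had an adjusted p under 0.05 (4.29%). In bulk RNA, fewer cells of a type and less RNA per cell cannot be told apart.

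The median log2 fold change of the 94 genes, MSR1 KO over MSR1 WT, was -0.03, beside -0.0023 for all tested genes. By the group means 45 genes were higher in MSR1 KO and 49 lower. The size of the change regardless of sign differed more, with a median of 0.29 on the log2 scale for the 94 genes, 0.18 for all tested genes and 0.15 for the rest of chromosome 8. All 94 genes entered the fit, and 88 of them had at least 10 counts in all 6 libraries. 4 genes had fewer than 3 libraries at this minimum in MSR1 KO and 4 in MSR1 WT.

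**Figure D1:**
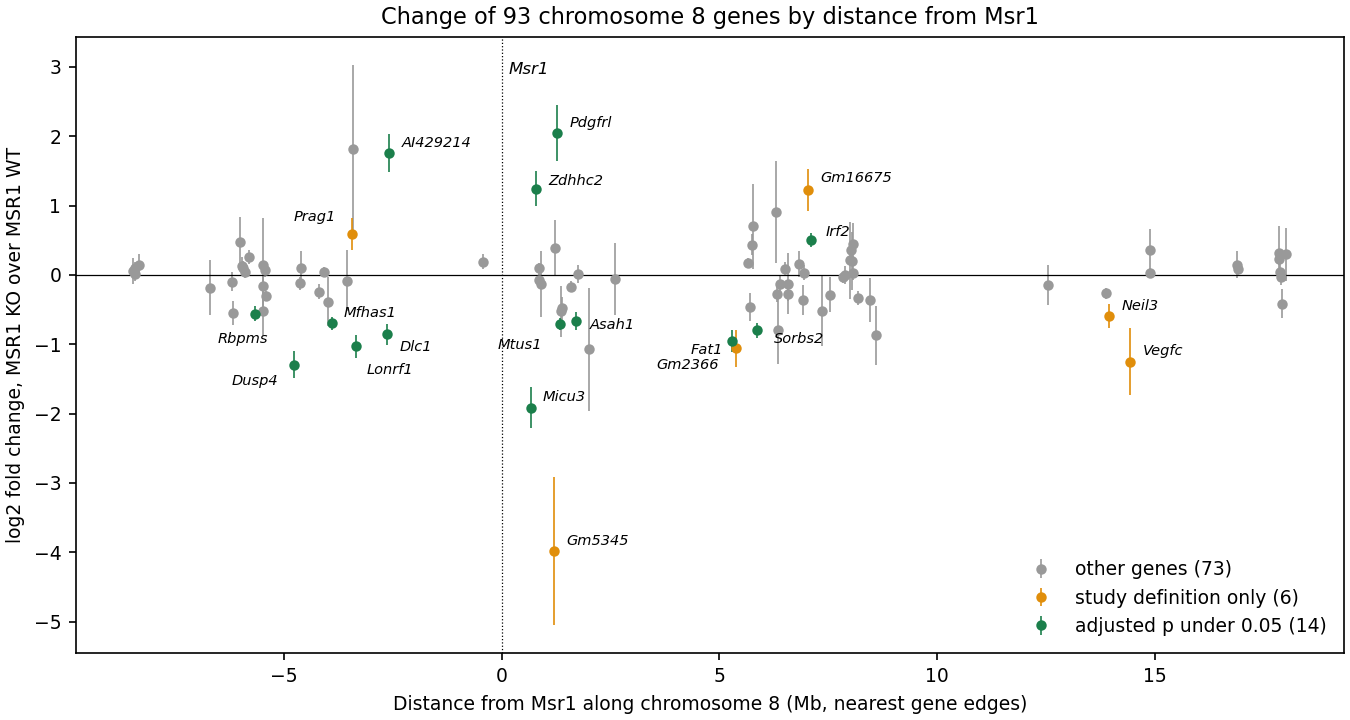
Log2 fold change (MSR1 KO over MSR1 WT, bars are the SE of the fit) of 93 of the 94 genes against the signed distance from Msr1 in Mb, where negative distances are lower coordinates. The 14 plotted genes with an adjusted p under 0.05 lie between Rbpms at -5.65 Mb and Irf2 at 7.10 Mb, with values from -1.91 for Micu3 to 2.04 for Pdgfrl.

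Distances were taken between the nearest edges of each gene and Msr1. The 18 genes before Dusp4, from -8.45 to -5.41 Mb, held no DEG and 1 gene with an adjusted p under 0.05, Rbpms (4 had an unadjusted p under 0.05, and Rbpms and Saraf an adjusted p under 0.05 in DESeq2). The 50 genes from Dusp4 to Irf2, from -4.76 to 7.10 Mb, held 16 DEGs (32%) and 14 genes with an adjusted p under 0.05 (28%). The 26 genes after Irf2, from 7.34 to 18.0 Mb, held 2 DEGs (7.69%, against 8.64% of all tested genes). None had an adjusted p under 0.05 in edgeR, and 6 had an unadjusted p under 0.05. An adjusted p under 0.05 in DESeq2 was reached by 2, Wwc2 and Neil3. Hpgd (56294585 to 56321043), which was left out, also lies in this stretch. Its log2 fold change was -5.90 (adjusted p = 2.2e-06 in edgeR), so changes did not end at Irf2. The 18 genes before Dusp4 ran from -0.56 to 0.48 on the log2 scale, and the 26 genes after Irf2 from -1.25 to 0.45. These borders were placed at changed genes after the values were seen.

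In fixed bins of 2.5 Mb, the DEGs fell into 3 bins within 10 Mb of Msr1. The bin from -5 to -2.5 Mb held 6 DEGs among 13 genes, the bin from 0 to 2.5 Mb 6 among 15, and the bin from 5 to 7.5 Mb 4 among 21. The bins next to them were empty of DEGs: 14 genes from -7.5 to -5 Mb and 11 genes from 7.5 to 10 Mb. Between the clusters few genes were measured, with only Tusc3 from -2.5 to 0 Mb and only Gm6180 from 2.5 to 5 Mb. Gaps between clusters thus hold almost no measured gene in these macrophages, and change inside the gaps could not be read.

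Within 5 Mb of Msr1, 12 of 30 genes were DEGs (40%), of which 4 were higher and 8 lower in MSR1 KO. Beyond 5 Mb, 6 of 64 were DEGs (9.38%), near the 8.64% of all tested genes. Of the genes left out, Fgf20 lies within 5 Mb and Hpgd beyond it, and both met the study's definition. Within 5 Mb, each side of Msr1 held 6 of the DEGs counted here, among 14 genes at lower coordinates and 16 at higher coordinates. The median size of change was 0.51 on the log2 scale within 5 Mb and 0.27 beyond. Over the 76 genes with a mean of at least 1 CPM, Spearman's rank correlation between the size of the change and the distance was -0.32, and between the size of the change and the mean CPM it was -0.40. Genes share libraries and weakly expressed genes scatter more, so both values are descriptions.

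**Figure D2:**
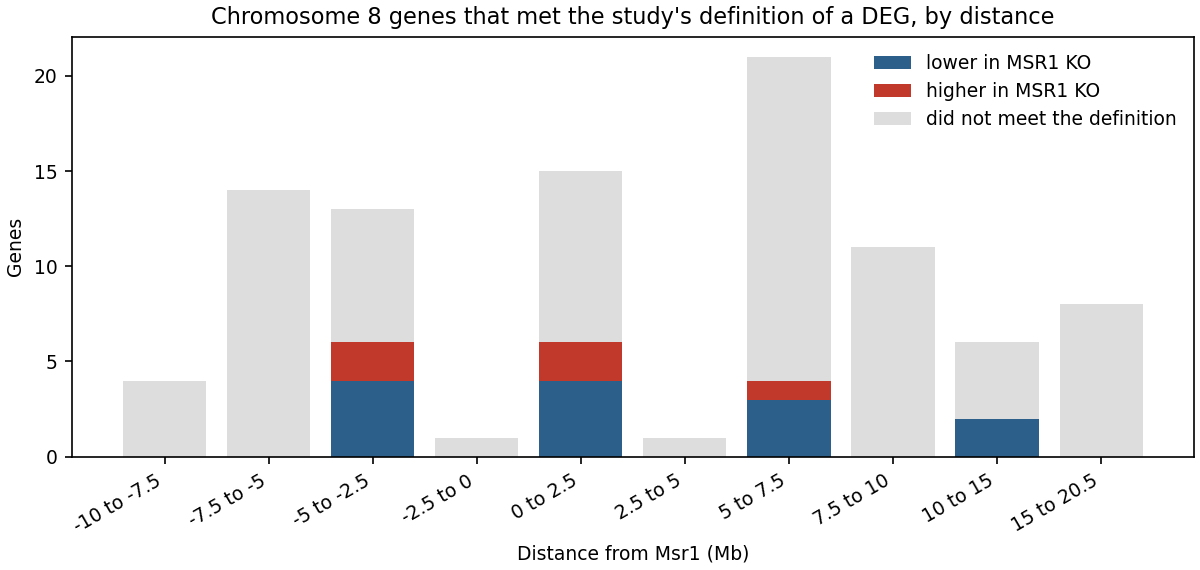
Number of the 94 genes in each bin of distance from Msr1 (x axis, Mb), split into genes that met the study's definition with a lower or a higher level in MSR1 KO and genes that did not meet it. The DEGs sit in the bins from -5 to -2.5 Mb (6 of 13), 0 to 2.5 Mb (6 of 15), 5 to 7.5 Mb (4 of 21) and 10 to 15 Mb (2 of 6).

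The cluster on the lower-coordinate side begins with Dusp4 (ENSMUSG00000031530.6, 34807297 to 34819894), a phosphatase that switches off MAP kinases in the nucleus. Dusp4 was at 2.28, 2.08 and 1.76 CPM in MSR1 KO and at 4.83, 4.72 and 5.47 CPM in MSR1 WT. Each MSR1 KO library was below each MSR1 WT library, a 2.45-fold lower level (log2 fold change -1.29, SE 0.19, adjusted p = 0.017). Its neighbours Tnks, a poly-ADP-ribose polymerase that acts at telomeres, and Eri1, an exonuclease that trims histone mRNA, had log2 fold changes of -0.12 and 0.04 (adjusted p = 0.56 and 0.85).

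Mfhas1 (ENSMUSG00000070056.6, 35587798 to 35679449) encodes a leucine-rich repeat GTPase that modulates Toll-like receptor signalling. It was at 36.4, 33.0 and 36.2 CPM in MSR1 KO and at 52.8, 62.4 and 56.4 CPM in MSR1 WT. The groups did not overlap, and Mfhas1 fell by 0.70 on the log2 scale (SE 0.09, adjusted p = 0.012). The lncRNA Gm16793, whose span meets that of Mfhas1, differed by -0.39 on the log2 scale (adjusted p = 0.63).

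Lonrf1 (ENSMUSG00000039633.6, 36216064 to 36249516), a RING finger protein with a LON domain, was at 3.70, 4.22 and 4.22 CPM in MSR1 KO and at 7.08, 8.30 and 9.46 CPM in MSR1 WT. All MSR1 KO libraries were lower (log2 fold change -1.03, SE 0.17, adjusted p = 0.020). Dlc1 (ENSMUSG00000031523.16, 36567751 to 36953143) encodes a GTPase-activating protein that acts on focal adhesions and the actin cytoskeleton. It was at 13.6, 18.6 and 13.0 CPM in MSR1 KO and at 28.4, 25.8 and 27.5 CPM in MSR1 WT. The MSR1 KO libraries were all lower, with the highest of them in replicate 2 (log2 fold change -0.86, SE 0.15, adjusted p = 0.023).

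Against these 4 genes that fell, AI429214 rose in the same cluster. AI429214 (ENSMUSG00000074384.4, 36993604 to 36995533) was at 8.99, 6.81 and 9.34 CPM in MSR1 KO and at 1.70, 2.28 and 3.49 CPM in MSR1 WT. Every MSR1 KO library was above every MSR1 WT library, a 3.37-fold higher level (log2 fold change 1.75, SE 0.28, adjusted p = 0.019). It begins less than 0.1 Mb past the end of Dlc1, which went the other way. Prag1, a pseudokinase, was at 9.35, 13.7 and 8.71 CPM in MSR1 KO and at 5.38, 6.96 and 8.74 CPM in MSR1 WT. Its groups overlapped, and it met the study's definition without passing the adjusted threshold (log2 fold change 0.59, SE 0.23, adjusted p = 0.21).

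The remaining genes of this cluster did not pass either call. Ppp1r3b, which brings a phosphatase to glycogen, differed by -0.24 on the log2 scale (adjusted p = 0.26). The lncRNA Gm9939 was at 0.11, and the ribosomal protein pseudogene Rps12-ps24 at -0.09 (adjusted p = 0.87 and 0.94). Gm38414 had 21, 8 and 15 counts in MSR1 KO and 0, 0 and 13 counts in MSR1 WT, and its log2 fold change of 1.81 came with an SE of 1.22 (adjusted p = 0.49).

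Next to Msr1 lies Tusc3, a subunit of the oligosaccharyltransferase that also bears on magnesium uptake. It is the nearest of the 94 genes, 0.42 Mb before Msr1. Tusc3 was at 24.6, 29.1 and 29.6 CPM in MSR1 KO and at 26.3, 24.8 and 21.8 CPM in MSR1 WT. The groups overlapped, and the log2 fold change of 0.19 (SE 0.11) did not pass (adjusted p = 0.41). No gene of an 11-member list of oligosaccharyltransferase subunits was a DEG or had an adjusted p under 0.05 in edgeR or DESeq2. In edgeR 1 gene had an unadjusted p under 0.05, and the log2 fold changes ran from -0.25 to 0.27.

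On the other side of Msr1, Micu3 (ENSMUSG00000039478.15, 40307458 to 40386308) is the nearest of the 94 genes, at 0.66 Mb. It encodes a regulator of the mitochondrial calcium uniporter, the channel that takes calcium into mitochondria. Micu3 was at 1.17, 2.61 and 2.02 CPM in MSR1 KO and at 7.57, 6.13 and 8.25 CPM in MSR1 WT. The groups did not overlap, with a 3.77-fold lower level in MSR1 KO (log2 fold change -1.91, SE 0.29, adjusted p = 0.018). The uniporter and its regulators were read as a list of 9 genes. In edgeR, Micu3 was the only one of them to be a DEG or to have an adjusted p under 0.05. In DESeq2, 2 genes of the list had an adjusted p under 0.05. The 8 genes besides Micu3, among them the pore subunit Mcu and the gatekeeper Micu2, had log2 fold changes from -0.38 to 0.18. Of its exon bases, 4.2% are shared with genes on the opposite strand, Fgf20 among them.

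Zdhhc2 (ENSMUSG00000039470.15, 40423815 to 40510268), an enzyme that attaches palmitate to proteins, begins soon after Micu3 and rose. It was at 3.51, 4.09 and 3.4 CPM in MSR1 KO and at 2.01, 1.31 and 1.33 CPM in MSR1 WT. Each MSR1 KO library was higher (2.37-fold, log2 fold change 1.24, SE 0.25, adjusted p = 0.032). Of its exon bases 4.5% are shared with Cnot7 on the opposite strand. Cnot7, a deadenylase that shortens mRNA tails, differed by 0.09 on the log2 scale (adjusted p = 0.62). Vps37a, a subunit of the ESCRT-I sorting complex, was at -0.07, and the lipid phosphatase gene Mtmr7 at -0.13 (adjusted p = 0.74 and 0.92).

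Pdgfrl (ENSMUSG00000031595.9, 40926212 to 40990785), a secreted protein that resembles the PDGF receptor, was a low gene that rose. It had 56, 68 and 80 counts in MSR1 KO and 25, 17 and 10 counts in MSR1 WT, or 1.66 ± 0.09 and 0.402 ± 0.19 CPM (SD, n = 3). The groups did not overlap, and the level was 4.12-fold higher in MSR1 KO (log2 fold change 2.04, SE 0.40, adjusted p = 0.031). Gm5345, a processed pseudogene whose reads may come from its parent gene, had 5, 0 and 0 counts in MSR1 KO and 40, 18 and 33 counts in MSR1 WT. It met the study's definition, and its log2 fold change of -3.98 carried an SE of 1.07 (adjusted p = 0.078). It reached 10 counts in MSR1 WT only. Choosing genes with 10 counts in every library drops it, and 12 lower DEGs then remained among 88 genes. Between Gm5345 and Pdgfrl lies Slc7a2, a transporter of cationic amino acids. Slc7a2 was at 5.07, 4.75 and 2.07 CPM in MSR1 KO and at 2.52, 2.02 and 4.5 CPM in MSR1 WT. These groups overlapped (log2 fold change 0.39, SE 0.41, adjusted p = 0.67).

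Mtus1 (ENSMUSG00000045636.16, 40990914 to 41133726), a microtubule-associated protein, lies next to the end of Pdgfrl, on the other strand. It was at 55.7, 56.0 and 50.6 CPM in MSR1 KO and at 96.8, 83.4 and 85.8 CPM in MSR1 WT. The groups stood well apart, with a 1.64-fold lower level in MSR1 KO (log2 fold change -0.71, SE 0.09, adjusted p = 0.0093). Of the 15 genes with an adjusted p under 0.05, only Mtus1 passed this threshold under each of the 12 other settings tried. Mfhas1 passed under 11, Rbpms and Irf2 under 6, and Zdhhc2 and Pdgfrl under 5, the fewest. Of the exon bases of Mtus1, 10% are shared with B430010I23Rik and Gm16192 on the opposite strand. These had log2 fold changes of -0.53 and -0.48 (adjusted p = 0.51 and 0.16), and 18.7% and 42% of their exon bases are shared with Mtus1. Without a known strand setting, reads from the shared bases cannot be assigned to one of the genes.

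Asah1 (ENSMUSG00000031591.14, 41340197 to 41374773) encodes acid ceramidase, the lysosomal enzyme that splits ceramide. Per kb of exon it had the highest level of the 94 genes, at 110 CPM per kb in MSR1 KO and 174 CPM per kb in MSR1 WT. In CPM it was at 355, 337 and 424 in MSR1 KO and at 701, 525 and 541 in MSR1 WT. All MSR1 KO libraries were lower, 1.58-fold by the fit (log2 fold change -0.66, SE 0.13, adjusted p = 0.030). Its flanking neighbours Pcm1, a scaffold of centriolar satellites, and Frg1, a nucleolar RNA-binding protein, had log2 fold changes of -0.17 and 0.01 (adjusted p = 0.30 and 0.98). Further out, Smarce1-ps1 had a log2 fold change of -1.07 and Gm6180 of -0.06 (adjusted p = 0.58 and 0.97). Both are low.

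**Figure D3:**
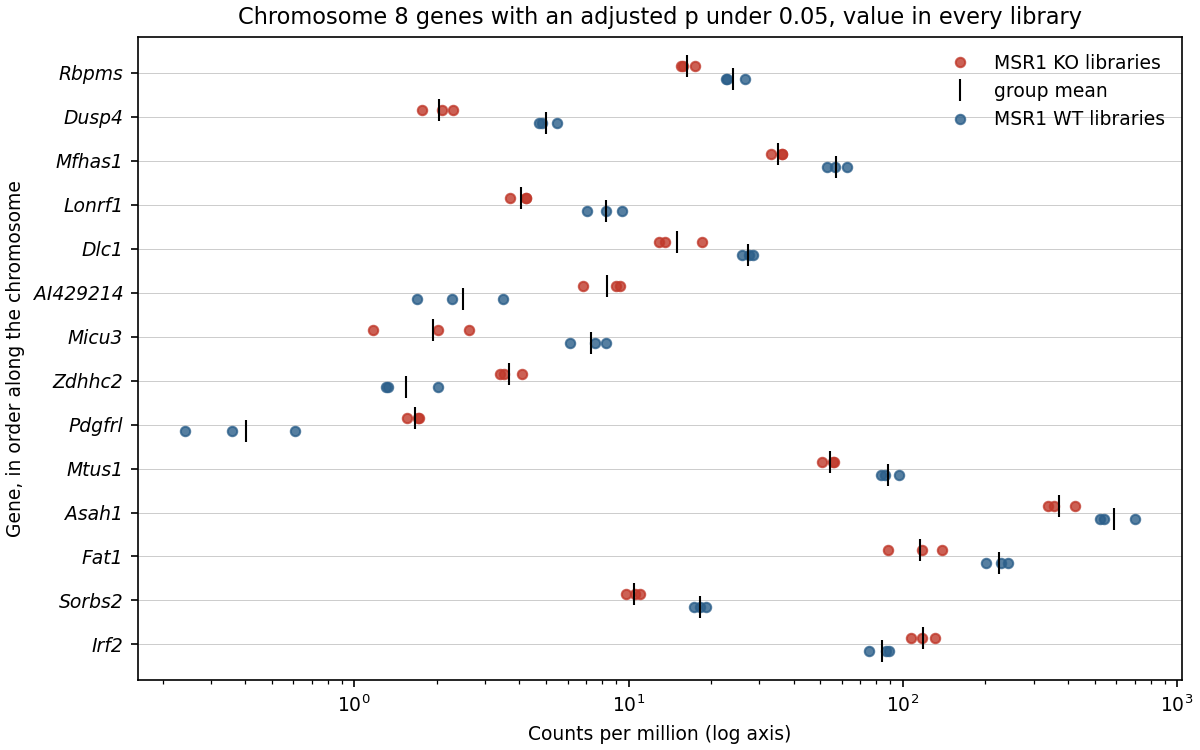
CPM (log axis) of 14 of the 15 genes with an adjusted p under 0.05 in each library, in order along the chromosome, with MSR1 KO libraries in red, MSR1 WT libraries in blue and the group mean as a bar. For none of the 14 do the groups overlap, from Pdgfrl at 0.402 CPM in MSR1 WT to Asah1 at 589 CPM in MSR1 WT.

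The third cluster, from 5 to 7.5 Mb, begins with Fat1 and ends with Irf2. Fat1 (ENSMUSG00000070047.14, 44935447 to 45052257), an atypical cadherin of cell contacts, was at 118, 139 and 88.2 CPM in MSR1 KO and at 241, 201 and 228 CPM in MSR1 WT. No MSR1 KO library reached an MSR1 WT library, and the highest of them was replicate 2 (log2 fold change -0.96, SE 0.16, adjusted p = 0.020). Gm2366 lies inside the span of Fat1 on the opposite strand, and 12.2% of its exon bases are shared with Fat1. It had 68, 60 and 52 counts in MSR1 KO and 145, 144 and 118 counts in MSR1 WT (log2 fold change -1.06, SE 0.26, adjusted p = 0.060).

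Sorbs2 (ENSMUSG00000031626.17, 45507788 to 45827906), an adaptor between actin stress fibres and signalling proteins, was at 10.6, 9.8 and 11 CPM in MSR1 KO and at 19.2, 17.3 and 18.2 CPM in MSR1 WT. The groups were narrow and did not overlap (log2 fold change -0.80, SE 0.11, adjusted p = 0.014). Between Fat1 and Sorbs2 lies Tlr3, the endosomal receptor for double-stranded RNA. It was at 36.3, 34.1 and 27.7 CPM in MSR1 KO and at 24.6, 19.9 and 28.2 CPM in MSR1 WT. Its groups overlapped (log2 fold change 0.43, SE 0.15, adjusted p = 0.16). Near it, Cyp4v3, a fatty acid hydroxylase, differed by 0.17 on the log2 scale (adjusted p = 0.26).

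At the end of the cluster, Irf2 rose. Irf2 (ENSMUSG00000031627.9, 46739732 to 46847458), a transcription factor that binds interferon-stimulated response elements (ISREs) and dampens interferon responses, was at 117, 131 and 107 CPM in MSR1 KO. In MSR1 WT it was at 88.7, 75.5 and 87.2 CPM, lower in each library (1.41-fold, log2 fold change 0.50, SE 0.10, adjusted p = 0.032). Gm16675, a lncRNA that begins beside Irf2 on the opposite strand, was at 5.48, 7.33 and 5.87 CPM in MSR1 KO and at 1.96, 2.02 and 4.02 CPM in MSR1 WT. Its groups did not overlap, and it met the study's definition only (log2 fold change 1.22, SE 0.30, adjusted p = 0.060).

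Irf2 and Gm16675 share a promoter region. By RefSeq (GRCm38.p6), their transcripts start 230 bases apart and point away from each other, and their promoter windows of 300 bases have 271 bases in common. The 250 bases before the start of Irf2 (chr8:46739495-46739744, plus strand) are shown because this stretch runs up to the Irf2 start and holds the Gm16675 start. Capitals mark an ISRE-type match (GAAA, any 2 bases, then GAAA again), which begins 241 bases before the Irf2 start. Seen from Gm16675, the match lies past the start of the transcript (46739515). The 250 bases before the Gm16675 start hold no such match.
Irf2 promoter: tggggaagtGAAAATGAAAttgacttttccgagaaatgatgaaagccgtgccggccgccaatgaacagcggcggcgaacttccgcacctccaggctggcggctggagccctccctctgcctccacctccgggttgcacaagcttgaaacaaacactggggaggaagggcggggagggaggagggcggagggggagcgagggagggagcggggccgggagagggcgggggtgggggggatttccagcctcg
The search covered both strands, and 2.98% of 32536 RefSeq promoter windows of this length hold such a match. Of the 94 genes, 35 had an entry in the promoter table, all from Fat1 onward. No gene within 5 Mb of Msr1 was therefore searched. Of the 35, with 44 windows between them, 3 had a match in any window, Irf2, Cyp4v3 and Asb5. The Irf2 window also holds a GAS-type match, TTCNNNGAA, and a CCAAT match. These letters are found in 7.04% and 33.8% of all windows, and none of the 3 matches overlap. A match of letters is a description of the window and shows no binding.

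Interferon-response genes moved with genotype in these libraries. All 12 genes of a list of such genes were DEGs and higher in MSR1 KO, 10 of them with an adjusted p under 0.05. This list was chosen after earlier results were known. Its summed level was 2983, 3395 and 2498 CPM in MSR1 KO and 969, 892 and 1535 CPM in MSR1 WT. The part of this shift in the levels of Irf2, Gm16675 and Tlr3 was not tested.

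Before Dusp4, the only gene with an adjusted p under 0.05 by the edgeR fit with TMM scaling was Rbpms (ENSMUSG00000031586.16, 33782643 to 33929863). It encodes an RNA-binding protein that regulates splicing. It was at 15.8, 17.5 and 15.5 CPM in MSR1 KO and at 26.6, 22.8 and 22.7 CPM in MSR1 WT. The groups did not overlap, and the change fell just short of 1.5-fold (log2 fold change -0.56, SE 0.11, adjusted p = 0.029). Near it, Gsr, which encodes glutathione reductase, Wrn, a RecQ helicase, and Ppp2cb, a catalytic subunit of protein phosphatase 2A, had log2 fold changes of 0.04, -0.10 and 0.13. Saraf, a brake on calcium entry into cells, was lower in each MSR1 KO library (129, 142 and 125 CPM against 155, 164 and 169 CPM). Its log2 fold change of -0.30 had an adjusted p of 0.064 in edgeR and 0.021 in DESeq2.

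Beyond Irf2, Neil3 and Vegfc of the 94 genes met the study's definition. Neil3, a DNA glycosylase of cycling cells, had 203, 253 and 317 counts in MSR1 KO and 410, 519 and 309 counts in MSR1 WT. Scaled to CPM its groups did not overlap (log2 fold change -0.59, SE 0.18, adjusted p = 0.11). Vegfc, a growth factor for lymphatic vessels, had 13, 25 and 38 counts in MSR1 KO and 49, 42 and 94 counts in MSR1 WT (log2 fold change -1.25, SE 0.48, adjusted p = 0.20). Of the genes of this stretch with the highest levels, Spcs3, a subunit of the signal peptidase, Hmgb2, a chromatin protein, and Trappc11, a membrane-tethering factor, had log2 fold changes of 0.03, 0.04 and -0.04. Wwc2 and Aga, a lysosomal amidase, had -0.33 and -0.27 with groups that did not overlap (adjusted p = 0.10 and 0.11).

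**Figure D4:**
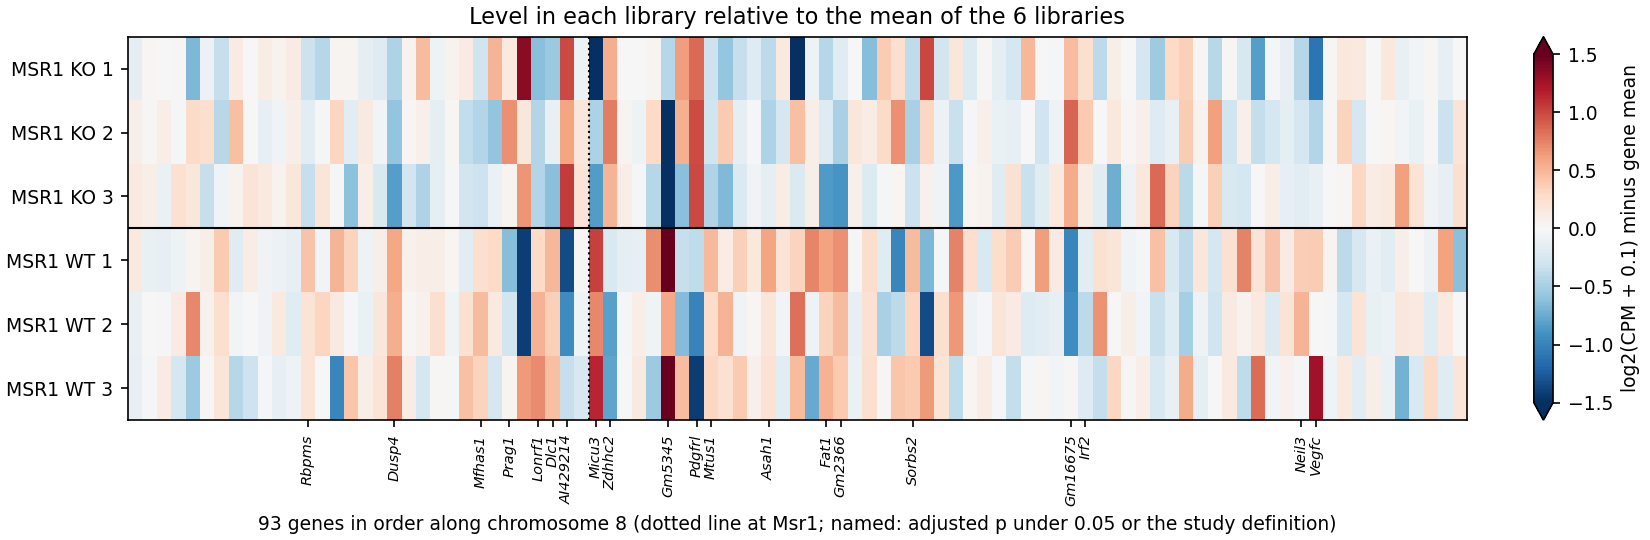
Level of 93 of the 94 genes (columns, in order along the chromosome) in each library (rows), as log2(CPM + 0.1) minus the mean of the 6 libraries, with colours limited to 1.5 in either direction. The genes with an adjusted p under 0.05 or the study's definition are named, and the 14 with an adjusted p under 0.05 separate the 3 upper from the 3 lower rows.

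By role, genes were counted at an adjusted p under 0.05, which 4.91% of all tested genes reached. Of 6 genes of the cytoskeleton, adhesion and cilium, 3 fell (Mtus1, Fat1 and Sorbs2) and none rose. The median log2 fold change of the 6 was -0.76. The other 3 were at -0.87 for Tenm3, -0.46 for Fam149a and 0.09 for Cfap97. Among 10 genes of signalling, cell death and innate immunity, 3 fell (Dusp4, Mfhas1 and Dlc1) and 2 rose, Pdgfrl among them. Among 11 genes of mitochondria, lipid and small-molecule metabolism, Micu3 and Asah1 fell. In the 17 genes of the secretory pathway, Lonrf1 fell and Zdhhc2 rose. In the 17 genes of DNA, chromatin and transcription, Irf2 rose, and in the 6 genes of RNA and ribosome, Rbpms fell. Mak16, a factor of ribosome assembly, differed by 0.0079 on the log2 scale (adjusted p = 0.98). By the study's definition, Neil3 fell in the DNA group, and Irf2 and Rbpms did not pass. Among the 10 signalling genes, 4 fell by this definition, Vegfc among them, and 1 rose (Pdgfrl). These roles were assigned by hand, with results known, so the counts describe which genes lie here.

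Protein-coding genes made up 73 of the 94, and all 15 genes with an adjusted p under 0.05 in edgeR were among them. The other 21, pseudogenes and non-coding RNAs, held 3 DEGs (Gm5345, Gm2366 and Gm16675) and 4 genes with an unadjusted p under 0.05. In DESeq2, Gm2366 and Gm16675 had an adjusted p under 0.05. The highest mean level among the 21 was 8.0 CPM, against 480 CPM for a protein-coding gene. The 5 genes that rose at an adjusted p under 0.05 lay on the plus strand, which carries 51 of the 94 genes, and the 10 that fell were split evenly, 5 on either strand. Of the 5 DEGs that were higher, Gm16675 lay on the minus strand. Exon bases were shared with a gene on the opposite strand for 40 genes. The strand setting of the counts is not given in the sources used here, so reads from the shared bases cannot be assigned to a strand.

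Other genes of the same pathways were read in lists set by hand. Of 14 tested genes of ceramide turnover, Asah1 and Smpd3, a neutral sphingomyelinase elsewhere on chromosome 8, fell and none rose (median log2 fold change -0.0065). Of 12 genes of cationic amino acid transport and arginine use, Ass1, the enzyme that makes argininosuccinate, rose (log2 fold change 0.78, adjusted p = 0.023). Slc7a3, Arg1 and Arg2 of this list met the study's definition only, with higher means in MSR1 KO, and the median of the list was 0.34. Arg1 was at 24.4, 4.55 and 5.1 CPM in MSR1 KO and at 2.11, 3.92 and 4.99 CPM in MSR1 WT. Its groups overlapped, and its log2 fold change of 1.62 was 0.40 without MSR1 KO replicate 1.

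The cells expressed macrophage markers in every library. The summed level of 10 macrophage genes was 24262 to 25551 CPM in MSR1 KO and 24925 to 27791 CPM in MSR1 WT. Of these genes, Fcgr1 rose (log2 fold change 1.14) and Mrc1 fell (-0.39), and none was at 0 in any library. Markers of stromal cells, the kind on the other side of the membrane, were also present. Of 12 such genes, 3 fell at an adjusted p under 0.05 (Pdgfra, Pdgfrb and Cxcl12), and none was at 0 in any library. This is 25% of the list, against 4.91% of all tested genes in either direction. By the study's definition 4 were lower, Col3a1 among them, and Thy1 was higher (log2 fold change 1.31, adjusted p = 0.091). The DEGs were 41.7% of the list, against 8.64% of all tested genes. The summed level of the 12 genes was 1549, 2052 and 1605 CPM in MSR1 KO and 2574, 2023 and 2345 CPM in MSR1 WT. MSR1 KO replicate 2 had the highest stromal sum of its group and also the highest Dlc1 and Fat1. It was also highest for Irf2, which rose, and lowest for Mfhas1, Asah1 and Sorbs2, which fell. The stromal sums of the groups overlapped (2052 CPM in this library, 2023 CPM in MSR1 WT replicate 2), unlike the levels of Dlc1 and Fat1. The part of stromal RNA in the change of these genes was not tested.

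**Figure D5:**
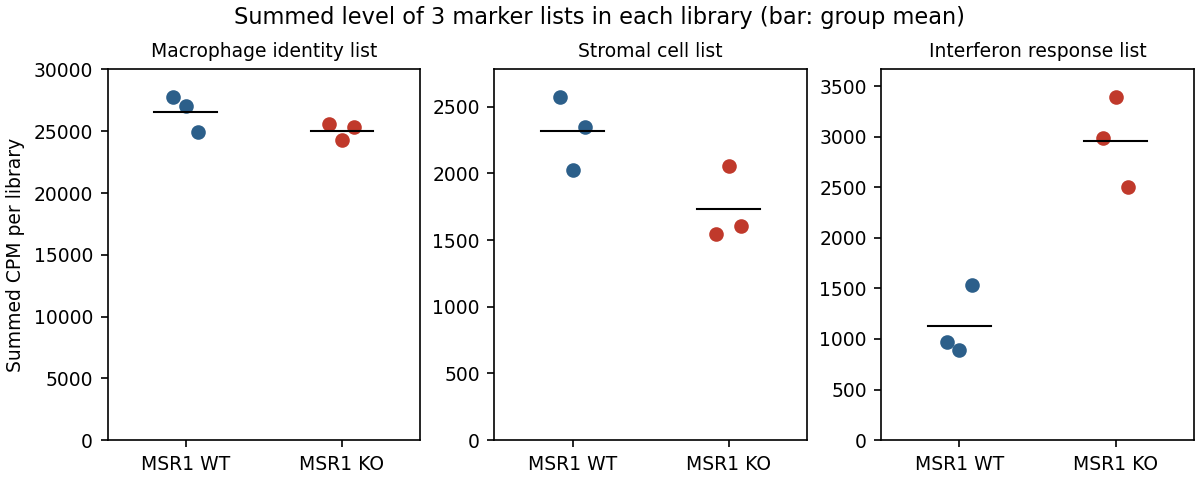
Summed CPM of the macrophage, stromal and interferon-response lists in each library (points) with the group mean (bar). The macrophage sums lie between 24262 and 27791 CPM, the stromal sums between 1549 and 2574 CPM, and the interferon-response sums at 2498 to 3395 CPM in MSR1 KO against 892 to 1535 CPM in MSR1 WT.

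The genes at the limits of the choice were low or unremarkable. Just inside the count minimum lay Gm38414, Gm26768 (9, 13 and 11 counts in MSR1 KO, 16, 13 and 3 in MSR1 WT), Smarce1-ps1 and Enpp6. Just outside it lay 4930412F12Rik (9, 0 and 10 counts, and 8, 0 and 10), Klkb1, Gpm6a and Cldn22. The outermost of the 94 genes were Rnf122 and Tti2 at the lower end and Gm10284 and AW046200 at the upper end, with log2 fold changes of 0.06, 0.10, -0.42 and 0.29. Past the lower edge lay 4933416M07Rik, Eif4ebp1 and 5430430B14Rik, of which the last had 15, 17 and 19 counts in MSR1 KO and 29, 39 and 34 in MSR1 WT and met the study's definition (adjusted p = 0.26). Past the upper edge lay Mfap3l, Hpf1 and Clcn3, none of which met either call.

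The number of genes with an adjusted p under 0.05 rested on single libraries. It was 3 without MSR1 KO replicate 1, 2 without MSR1 WT replicate 1 and 6 without MSR1 WT replicate 2, in fits that called 125, 71 and 203 of all tested genes. By the study's definition the counts moved less when a library was left out, from 4 to 7 higher and from 11 to 16 lower.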

How the data were processed

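mRNA-seq libraries were sequenced from 3 MSR1 KO and 3 MSR1 WT macrophage cultures. The submitters' processing notes name fastp 0.17.1, HISAT2 2.1.0, DESeq2 1.18.1 and R 3.4.3, whereas the study's methods name TopHat. Neither the genome build nor the program and strand setting used for counting are given in the sources used here. The authors deposited raw counts per gene and library, which were used, and a signal column per library, the count divided by a size factor, which was not used. Columns of the authors' own comparison (log2 fold change, p-value and adjusted p-value) were left out, and 0 value columns lacked a mapping. Deposited coordinates were read against GENCODE M21 (GRCm38): 52403 of 52550 identifiers were found, 49909 with the same start and end.

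Counts were filtered (filterByExpr), TMM-scaled and tested over 16402 genes with edgeR 4.0.16 in R 4.3.3 (glmQLFit and glmQLFTest, Benjamini-Hochberg). CPM uses the TMM-scaled library size, and each SE was derived from the fold change and its F statistic. DESeq2 1.42.0 served as an alternative. Total counts of 36143518 to 47417448 per library and 3 libraries a group limit the precision. The study calls the libraries biological replicates, the labels name no animals, and p-values measure the spread between these libraries. Exact permutation of 3 against 3 libraries cannot go below p = 0.1. The scripts were tested on simulated data.

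The genes and lists were chosen with earlier results of these data known. Named genes were those that met the study's definition or had an adjusted p under 0.05, those within 5 Mb of Msr1, the 3 highest of each role by mean CPM, and those at the limits of the choice. Wrn, Tlr3, Aga, Tenm3, Fam149a and Asb5 were named after their values were seen. The values of 1 of the 94 genes are not reported here.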

Additional observations from a re-analysis of the deposited data

How the results depend on the processing

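The alternatives were another scaling (DESeq2 size factors, library size alone), DESeq2's Wald test, other count filters for the fit and for the choice of genes, other widths around Msr1, a replicate block, and leaving out each library in turn. Over 53 named genes, 543 of 633 values kept their direction and their side of the threshold, 60 lost the call and 9 gained it. 21 values, of 9 genes near 0 that passed in no fit, changed sign. With library size alone these were Mak16 (-0.024), Frg1 (-0.021) and Spcs3 (-0.0066). With a library left out, log2 fold changes ran from -0.050 to 0.074 for Mak16, from -0.015 to 0.13 for Gsr, from -0.14 to 0.32 for Gm9939, from -0.46 to 0.17 for Rps12-ps24 and from -0.40 to 0.33 for Mtmr7. They ran from -0.066 to 0.13 for Frg1, from -0.39 to 0.49 for Gm6180, from -0.00089 to 0.055 for Spcs3 and from -0.054 to 0.13 for Hmgb2. The number of the 94 genes with an adjusted p under 0.05 (15) ran from 2 to 14 when a library was left out, lowest without MSR1 WT replicate 1, and was 20 with DESeq2's Wald test. The adjusted p of these 15 genes was at most 0.11 under the alternatives. All tested genes past this threshold (805) numbered 1577 with DESeq2's Wald test, 525 with no filter beyond a total count above 0, and 71 to 779 with a library left out. The median of the 94 genes (-0.03) was 0.025 without MSR1 WT replicate 1. The share of DEGs near Msr1 (40% within 5 Mb) was 20% within 10 Mb, where the 50 added genes held 4 DEGs, 37.5% within 2.5 Mb, and 33.3% to 43.3% with a library left out. The uniporter list (1 gene past the threshold) held 2 with DESeq2's Wald test and 0 to 1 with a library left out.

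With the replicate number as a block, 2 of the 94 genes and 137 of all tested genes (805 without it) had an adjusted p under 0.05, the uniporter list held 0, and Gm6180 was at 0.090 on the log2 scale. Deviations of same-numbered libraries from their group means correlated at -0.026, 0.019 and -0.005 over 16402 genes. Libraries with different numbers correlated at -0.034 to 0.037. Same-numbered libraries thus showed no stronger tie, but 3 libraries a group cannot exclude that they were processed together. At this depth the genes under 1 CPM limit what can be read.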
